A study of Mus musculus with 18 samples.

Results

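Complement components and regulators are described here in knee cartilage of mice after rupture of the anterior cruciate ligament (ACL), through 9 genes: C1qa, C1qb, C1qc, C1s1, C3, C4b, Cfb, Cfp and Serping1. They are a list of names set with earlier results of these data known, out of 49184 genes with a matched transcript. All 9 passed the filter on low counts, as did 21262 genes in all. Male C57Bl/6J mice aged 12 weeks were used throughout. In the injured groups a single 12 N load, after a 0.5 N pre-load, ruptured the ACL of the right knee, and the left knee of the same mice gave the contralateral groups. Cartilage was collected at day 1 (3 injured and 3 contralateral libraries) or day 7 (3 and 3), and 6 libraries, labelled as day 7, came from naïve mice that were not loaded, so that comparisons of day 1 with naïve libraries also differ in the labelled day. Each library was a pool of femoral condyle caps. The study's methods give 2 mice per pool at day 1 and 4 at day 7, with the left and right knees of naïve mice pooled apart, while the text deposited with the series gives 4 throughout. The study pooled 4 mice at day 7 because some cartilage had been lost by then. The part of that loss in the levels was not tested. By those methods there were 6 naïve mice in all, so that the 6 naïve libraries, left and right knees of the same animals, share mice, and n = 6 counts libraries. The labels do not say which libraries share mice, so every library was treated as independent. For that reason p-values may be too small where libraries of 1 group share mice. Where injured and contralateral knees of the same mice are compared, they may instead be too large.

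Complement is a cascade of plasma and tissue proteins that marks surfaces and recruits phagocytes. C1q, built from the chains A, B and C, recognises a target and carries the proteases C1r and C1s, which cut C4 and C2 to form the classical C3 convertase. The alternative pathway builds its convertase from C3b and factor B (Cfb), and properdin (Cfp) stabilises it. Both converge on C3, the central component, whose fragments opsonise and whose activation leads to the terminal pore. C1 inhibitor (Serping1) inactivates C1r and C1s. Macrophages are the best known source of the C1q chains, whereas fibroblasts and chondrocytes can make C1r, C1s, C3 and C4. Complement proteins are found in the synovial fluid of osteoarthritic joints.

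The estimated counts per library summed to between 16074762 and 41794005. Levels are given as CPM, counts scaled to the library total after TMM normalization over the 18 libraries, when libraries are compared for 1 gene. They are given as TPM, which also allows for transcript length, when genes are compared. One library stood apart. In day 7 contralateral replicate 1, the 10 most abundant genes held 42.5% of the counts, against 16.6% to 29.8% in the other 17, and 24213 genes had a count, the fewest of all. Tests against the day 7 contralateral group are also given without it.

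The labels call the tissue cartilage and the cells chondrocytes. The 14 chondrocyte markers listed summed to between 3725 and 13646 CPM, with Col2a1 the most abundant. However, the libraries also held RNA with the markers of other cells. Erythroid genes summed to between 16877 and 64974 CPM (most abundant Hbb-bs), neutrophil genes to between 8195 and 16716 CPM (Ngp) and macrophage genes to between 2312 and 3635 CPM (Lyz2). Of 10 markers of liver, the main source of plasma complement, 2 passed the filter. They were Trf, the transferrin gene, which other tissues also express (143.1 to 367.9 CPM, most of the list's 148.9 to 371.03 CPM), and Serpina1a, at a mean of 5.87 CPM. The other 8 had at most 13 counts in a library, with Alb at no more than 7, Ttr at 0 in 17 of 18 libraries and Fgb at 0 in all. In bulk RNA, fewer cells of a type and less RNA per cell cannot be told apart.

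All 9 genes lie on the minus strand of GRCm38 and are protein coding. C1qa (chr4:136895917-136898803), C1qc (chr4:136889804-136893065) and C1qb (chr4:136880129-136886187) are neighbours. C4b (chr17:34728380-34743882) and Cfb (chr17:34856374-34862518) share the major histocompatibility region, and C3 (chr17:57203970-57228136) lies on the same chromosome. C1s1 is at chr6:124530345-124542359, Serping1 at chr2:84765387-84775444 and Cfp at chrX:20925454-20931555. RefSeq promoters (GRCm38.p6) were at hand for 5 of the 9: C1qb, C1qc, C1s1, C3 and Cfp. The 250 bases before the start are printed for C1qb (chr4:136886201-136886450, minus strand) because C1qa and C1qb had closely similar profiles, and for C1s1 (chr6:124542360-124542609, minus strand, the upstream of 2 starts) and C3 (chr17:57228137-57228386, minus strand) because one rose at day 7 and the other did not. Capitals mark a match to the ETS and PU.1 core AGGAAGT in C1qb, and to the C/EBP letters TTGCNNAA in C1s1 and C3. In C1qb and C1s1 the match appears as its reverse complement.
C1qb: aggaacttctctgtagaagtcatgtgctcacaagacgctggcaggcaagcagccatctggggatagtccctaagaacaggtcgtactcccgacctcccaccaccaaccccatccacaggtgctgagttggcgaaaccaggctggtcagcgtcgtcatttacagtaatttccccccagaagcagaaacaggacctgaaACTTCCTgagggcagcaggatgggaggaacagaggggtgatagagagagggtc
C1s1: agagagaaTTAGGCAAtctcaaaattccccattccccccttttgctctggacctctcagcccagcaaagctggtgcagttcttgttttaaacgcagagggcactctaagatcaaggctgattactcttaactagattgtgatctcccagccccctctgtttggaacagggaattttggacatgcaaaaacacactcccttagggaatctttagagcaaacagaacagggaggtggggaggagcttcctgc
C3: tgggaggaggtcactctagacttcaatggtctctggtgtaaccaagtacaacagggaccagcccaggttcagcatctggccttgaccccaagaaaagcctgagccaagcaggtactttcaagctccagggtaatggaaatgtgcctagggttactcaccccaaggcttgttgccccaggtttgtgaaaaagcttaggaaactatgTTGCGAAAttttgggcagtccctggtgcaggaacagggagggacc
In C1qb the match lies at −53 to −47 from the start, and C1qc holds the same 7 letters at −195 to −189. Of 32851 promoters searched on both strands, 7.69% hold AGGAAGT. The C/EBP match of C3 lies at −45 to −38 and that of C1s1 at −242 to −235, and 9.56% of all promoters hold one. An NF-kB consensus, found in 7.25% of promoters, matched C1qc at −41 to −32. The STAT letters TTCNNNGAA and the interferon-stimulated response element, held by 7.02% and 2.98% of promoters, had no match in these windows. The marked matches do not overlap each other. These are letter matches, chosen after the sequences had been read, and binding was not measured.

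C3 was the most abundant of the 9 genes per transcript length in naïve cartilage, at 72.7 ± 15.96 TPM (SD, n = 6). C1qb followed at 40.0 ± 7.38 TPM, with no overlap between the libraries of the pair. C1qa stood at 36.2 TPM, C1qc at 24.9, Serping1 at 24.7, C4b at 24.0 and Cfp at 23.3 TPM, and each of these overlapped its neighbour in the order. Cfb (9.14 TPM) and C1s1 (8.83 TPM) were lowest, apart from Cfp and overlapping each other. The order was similar in day 1 libraries, where C3 again led at 85.8 ± 14.5 TPM in contralateral and 95.6 ± 27.2 TPM in injured knees (SD, n = 3 each), and no C3 library overlapped the next gene.

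At day 7 after injury the order differed at the top and at the bottom. C1qb stood at 48.1 ± 9.001 TPM and C3 at 47.7 ± 5.38 TPM (SD, n = 3), and their libraries overlapped. Serping1 was the third at 38.4 ± 9.18 TPM. C1s1, at 19.1 ± 4.23 TPM, stood above Cfp (15.3 ± 0.783 TPM), although its libraries overlapped those of Cfp. It also stood above Cfb (12.4 ± 1.97 TPM), as in day 1 injured libraries. As a share of the TPM summed over the 9 genes, C3 made up 27.5% ± 4.20 in naïve (SD, n = 6) and 17.9% ± 0.658 in day 7 injured libraries (SD, n = 3), and the ranges, 21.7% to 32.0% and 17.3% to 18.6%, did not overlap. TPM is not TMM-scaled and was not tested. In day 7 contralateral replicate 1 the TPM of most of the genes was low, with C3 at 22.7 TPM against a highest value of 110.0 TPM in its group.

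**Figure D1:**
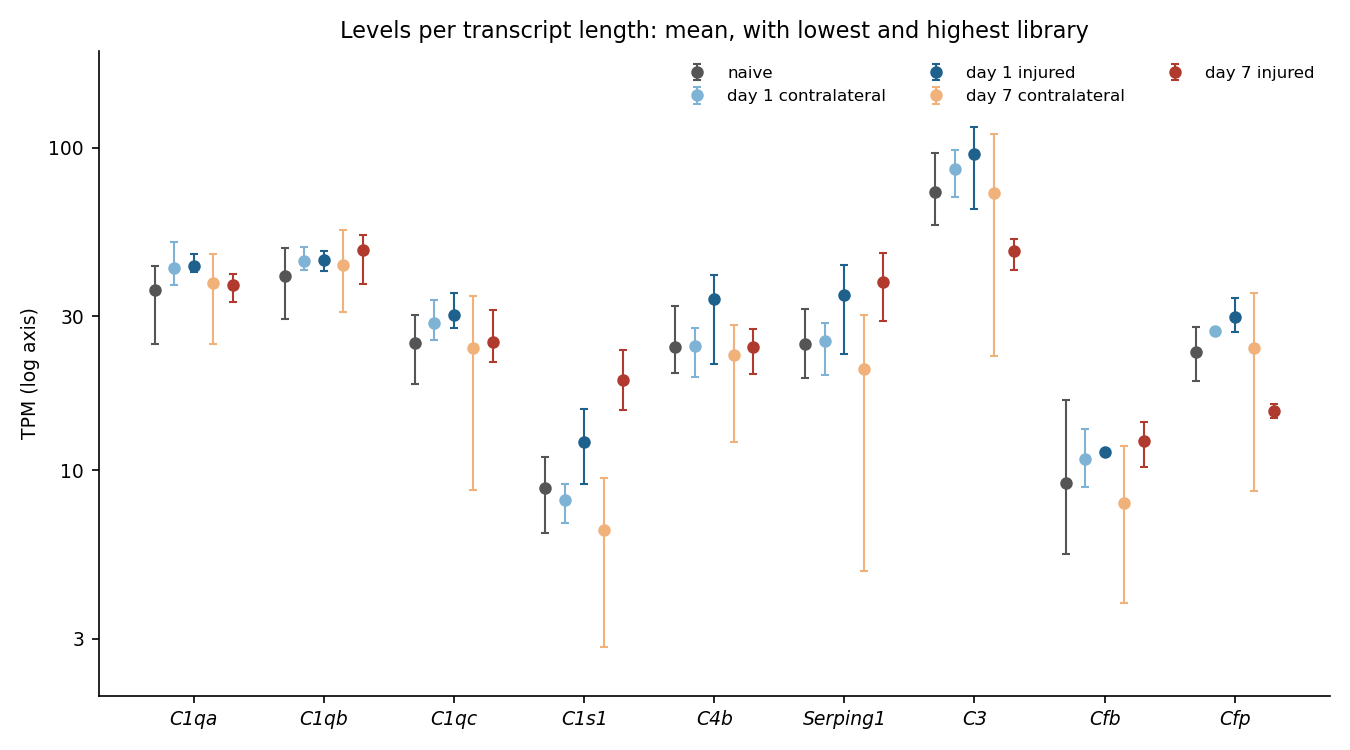
Mean TPM (log axis) of the 9 complement genes in the 5 groups, with bars from the lowest to the highest library (n = 6 naïve, n = 3 in each other group). C3 leads in naïve libraries at 72.7 TPM, whereas at day 7 after injury C1qb (48.1 TPM) and C3 (47.7 TPM) overlap.

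C1s1, Serping1 and Cfb rose in injured cartilage at day 7 against naïve mice, and no member fell. A gene was called at a false discovery rate (FDR, Benjamini-Hochberg over 21129 genes) of at most 0.05 and a change of at least 1.5-fold with edgeR's quasi-likelihood test. By that rule 3 of 9 members were higher, where 10.4% of all genes tested were higher, and 0 were lower, where 6.11% of all genes were. The median log2 fold change of the members was 0.37, against −0.04 over all genes tested. With an unadjusted p under 0.05, 5 of the 9 and 41.1% of all genes passed. By CPM the groups stood apart for C1s1, Serping1 and C1qb, with all 3 day 7 injured libraries above all 6 naïve ones, which 17.4% of all genes also showed. None of the 9 stood apart below, as 10.8% of all genes did.

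C1s1, the serine protease of the C1 complex that cuts C4 and C2, changed most. It stood at 100.2, 102.2 and 113.8 CPM in the injured libraries at day 7, and between 30.2 and 51.9 CPM, with a median of 36.1, in naïve libraries. Contralateral libraries at day 7 held 35.8, 35.1 and 35.4 CPM. At day 1 the level was 47.8, 25.7 and 42.9 CPM in injured and 30.6, 32.0 and 25.5 CPM in contralateral knees. Every other library of the series was therefore below the lowest of the day 7 injured ones. The log2 fold change of C1s1 was 1.45 ± 0.171 (SE) against naïve mice (edgeR, FDR 1.35e-05) and 1.57 ± 0.202 against contralateral knees (FDR 2.81e-05). Both calls were made under each of the alternatives tried, with any single library left out too. The near-identical C1s2 had at most 6 estimated counts in a library, and reads that fit both genes were not measured. Of C1s1 counts, C1s1-204 took 75.7% ± 6.77 in naïve (SD, n = 6) and 70.5% ± 3.02 in day 7 injured libraries (SD, n = 3), with overlapping ranges.

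Serping1, the inhibitor of C1r and C1s, rose alongside. Its level was 129.1, 146.4 and 160.1 CPM in day 7 injured libraries and 55.3 to 101.3 CPM in naïve ones, with a median of 74.5. Contralateral knees at day 7 held 39.6, 73.8 and 77.5 CPM, the lowest being the library that stood apart. In CPM the groups did not overlap in either comparison. In TPM, which is not TMM-scaled, both did overlap. The TPM was 29.0 to 47.3 in day 7 injured, 19.3 to 31.7 in naïve and 4.86 to 30.4 in day 7 contralateral libraries. The log2 fold change was 0.93 ± 0.186 (SE) against naïve mice (FDR 0.00152) and 1.19 ± 0.258 against contralateral knees (FDR 0.00336, edgeR), and it was 0.96, still called, without contralateral replicate 1. The ratio of Serping1 to C1s1 in TPM was 2.82 ± 0.309 in naïve (SD, n = 6) and 2.005 ± 0.116 in day 7 injured libraries (SD, n = 3), so that the protease changed by more than its inhibitor. No library of the latter group reached the lowest naïve ratio of 2.31, although day 7 contralateral replicate 1 was lower still, at 1.71. Over the 18 libraries C1s1 and Serping1 had a Pearson correlation of log2 CPM of 0.901, given as a description of libraries that share group differences and depth. The library that stood apart is included, and the value was not computed without it.

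Cfb, the protease subunit of the alternative convertase, depended most on single libraries of the 3. It stood at 67.2, 71.7 and 70.9 CPM in day 7 injured libraries, and at 19.0 to 69.0 CPM in naïve ones, with a median of 35.0. Naïve replicate 5 held the 69.0 CPM and overlapped the injured group, and the next naïve library was at 39.6. Contralateral libraries at day 7, at 38.8, 39.5 and 33.6 CPM, did not overlap. In TPM, which is not TMM-scaled, they did, at 3.87 to 11.9 against 10.2 to 14.1 in day 7 injured libraries. The log2 fold change was 0.90 ± 0.295 (SE) against naïve mice (edgeR, FDR 0.0330). That call was lost without naïve replicate 2, 3 or 4 or any single day 7 injured library, at FDRs of 0.0504 to 0.0898. Against contralateral knees the change was 0.91 ± 0.331 at an FDR of 0.0668, which was not called by edgeR, whereas DESeq2 called it (FDR 0.0358), and it was 0.96 (edgeR FDR 0.111) without contralateral replicate 1. The split of Cfb counts between its transcripts varied widely, with Cfb-201 at 1.79% to 66.3% of the gene in naïve and at 54.2% to 80.2% in day 7 injured libraries. A read-through gene that overlaps Cfb on the same strand had 14 counts over all libraries, against 18764 for Cfb.

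**Figure D2:**
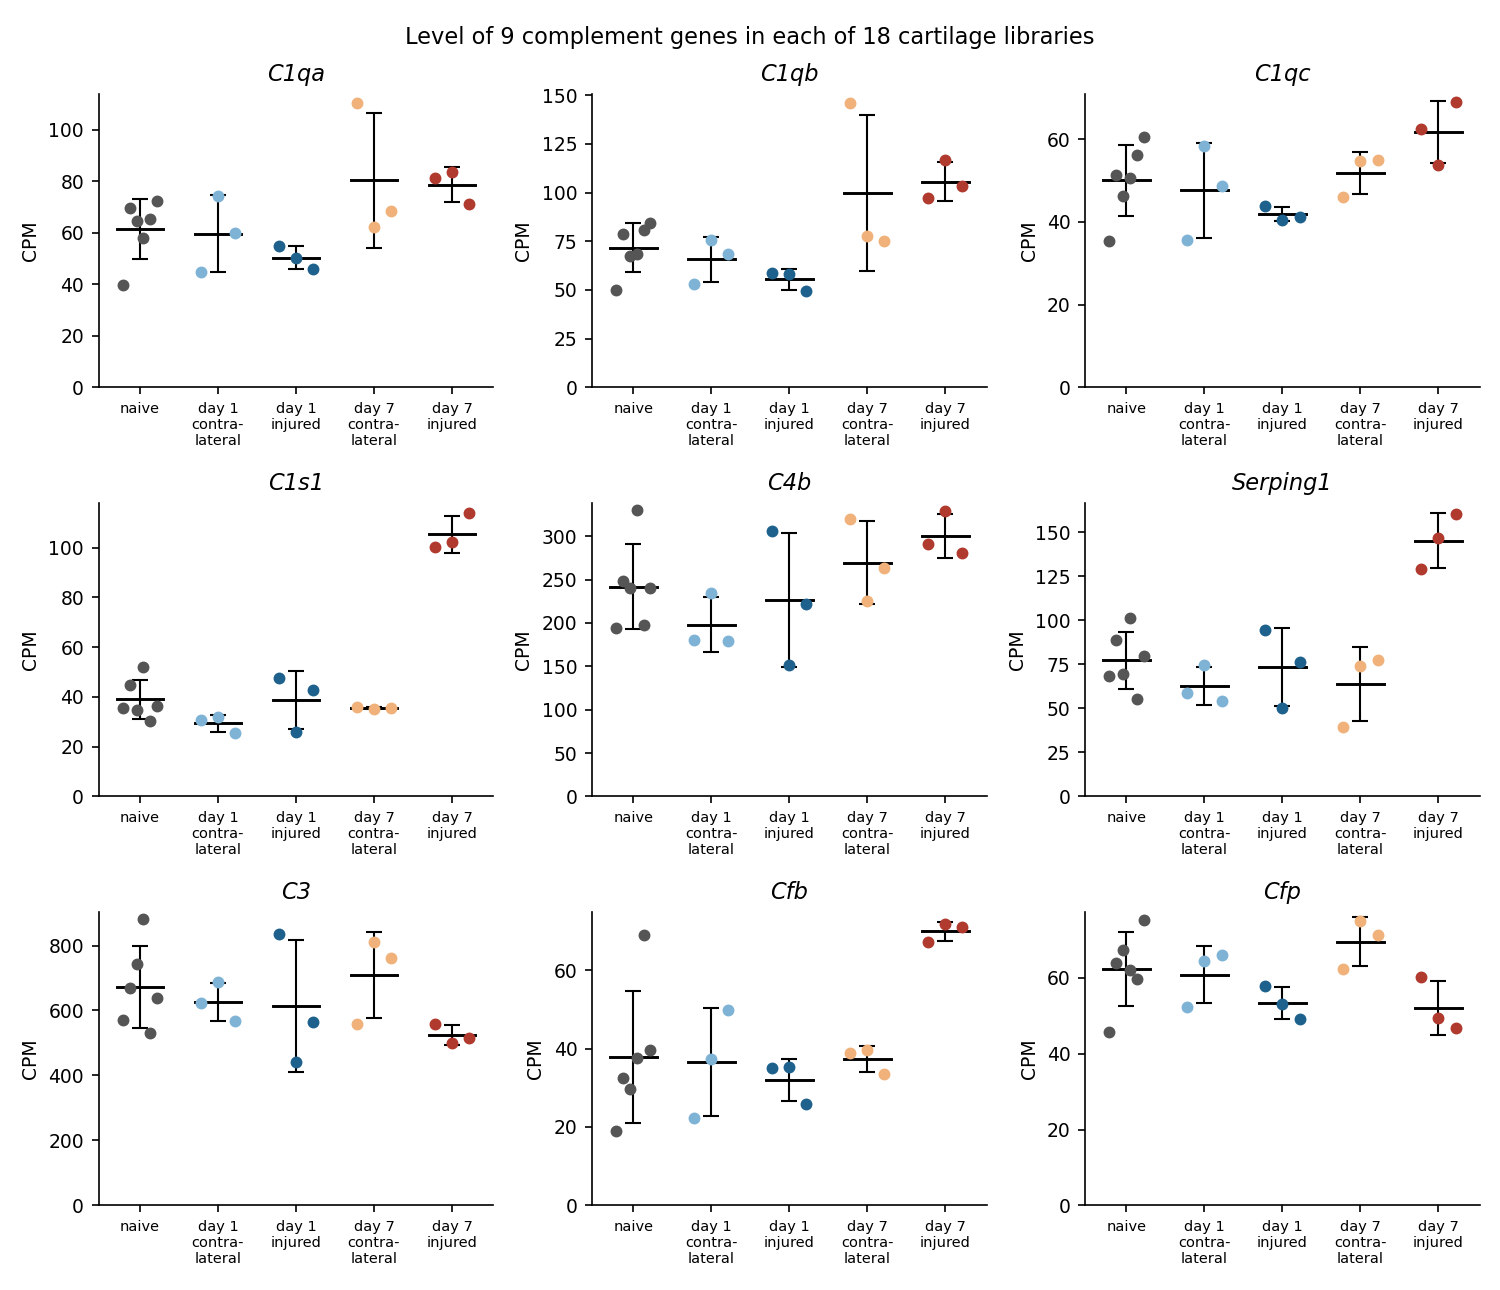
CPM of each of the 9 genes in every library of the 5 groups, with the mean and SD of the group (n = 6 naïve, n = 3 in each other group). C1s1 and Serping1 in day 7 injured libraries lie above every other library, and Cfb overlaps a single naïve library at 69.0 CPM.

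The C1q chains, which form the recognition unit, differed less from naïve cartilage. C1qb held 97.1, 116.7 and 103.2 CPM in day 7 injured libraries against 50.1 to 84.1 CPM, with a median of 73.6, in naïve ones, and the groups did not overlap. In TPM, which is not TMM-scaled, C1qb did overlap, at 37.7 to 53.7 in day 7 injured and 29.4 to 48.9 in naïve libraries. Its log2 fold change of 0.58 ± 0.144 (SE) had an FDR of 0.00718 but lay just short of 1.5-fold, so that it was not called by edgeR. The limma-voom test (0.59) and the fit with transcript length as an offset (0.59) did call it, as did edgeR in 5 of the 9 fits that left out 1 library. C1qa was at 81.2, 83.7 and 71.2 CPM against 39.9 to 72.2 CPM in naïve libraries, and C1qc at 62.5, 53.8 and 69.0 CPM against 35.4 to 60.5. Both overlapped the naïve group. Their log2 fold changes were 0.37 (FDR 0.105) and 0.32 (FDR 0.135).

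Against contralateral knees at day 7 the C1q chains showed no call, at log2 fold changes of −0.03 for C1qa, 0.09 for C1qb and 0.25 for C1qc. By CPM, the contralateral library that stood apart held the highest C1qa (110.5 CPM) and C1qb (146.0 CPM) of the series, but not the highest C1qc (46.1 CPM). In TPM, which is not TMM-scaled, that library held the lowest C1qa of the series (24.6 TPM), and C1qb at 30.9 TPM. Without it the fold changes were 0.29 for C1qa and 0.49 for C1qb, again not called. C1qa and C1qb had a Pearson correlation of 0.949 over 18 libraries, and C1qc correlated with C1qa at 0.679. Both values include the library that stood apart, high in C1qa but not in C1qc, and neither was computed without it.

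The level of C1q can be set beside that of the macrophage markers. The summed CPM of the 3 chains was 125.3 to 216.8 in naïve and 240.9 to 254.2 in day 7 injured libraries, which did not overlap. In TPM, which is not TMM-scaled, each of the 3 chains did overlap between these groups. The 15 macrophage genes summed to 2312 to 3058 CPM and 2434 to 2954 CPM in the same groups, and did overlap. Of the 14 macrophage genes tested, 1 was higher at day 7, Ms4a7 (log2 fold change 1.09, FDR 0.0252), and 0 were lower, with a median of 0.15. C1q per 100 CPM of the list was 6.71 ± 0.885 in naïve (SD, n = 6) and 9.18 ± 0.940 in day 7 injured libraries (SD, n = 3), and the lowest of the latter, 8.15, was above the highest naïve value of 7.53. Contralateral libraries at day 7 held 11.8, 5.36 and 6.41. The first, the library that stood apart, was above the injured group, and the other 2 were below every injured library. Lyz2, which neutrophils also express, made up most of the sum. Without Lyz2, a choice made after seeing the data, the other 14 genes summed to 618.5 to 932.5 CPM in naïve and 893.7 to 998.9 CPM in day 7 injured libraries. C1q per 100 CPM of these was then 22.8 ± 1.73 and 26.4 ± 0.808, a ratio of means of 1.15 in place of 1.37, and the lowest injured value, 25.4, lay close above the highest naïve one, 24.8. Contralateral libraries at day 7 held 31.8, 22.4 and 22.04 on that measure. Day 1 contralateral replicate 2, at 25.6, was also above the lowest day 7 injured library. The part of macrophage number in the C1q levels was not tested.

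**Figure D3:**
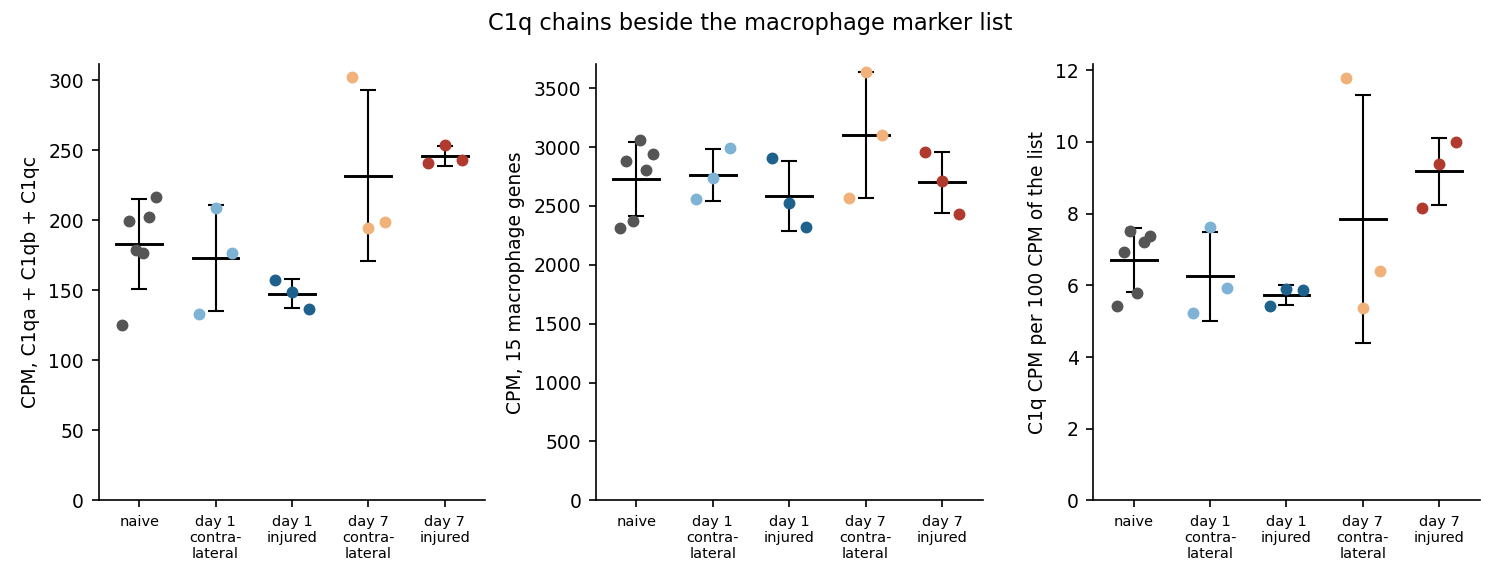
Summed CPM of C1qa, C1qb and C1qc (left), summed CPM of 15 macrophage genes (middle) and the first per 100 CPM of the second (right), by library with the group mean and SD (n = 6 naïve, n = 3 in each other group). Day 7 injured libraries start at 8.15 in the right panel, above the naïve libraries and above 2 of the 3 day 7 contralateral ones, the exception being the library that stood apart, at 11.8.

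C3, C4b and Cfp were not called in any comparison. C3 stood at 557.7, 500.6 and 515.8 CPM in day 7 injured libraries, within or below the naïve range of 530.3 to 881.2 CPM, at a log2 fold change of −0.34 ± 0.18 (SE, edgeR FDR 0.171). Against contralateral knees (558.1, 809.4 and 761.5 CPM) it was −0.44, with an FDR of 0.174 (−0.56 and 0.0948 without contralateral replicate 1), and the 3 injured libraries lay below the 3 contralateral ones. C4b, the mouse C4 gene, was at 290.9, 329.0 and 281.0 CPM against 194.4 to 329.9 CPM in naïve libraries (0.33 ± 0.190, FDR 0.204). Its close copy C4a had a mean of 8 to 16 counts by group, where C4b had 5652 to 6528. Cfp, the stabiliser of the alternative convertase made by myeloid cells, was at 60.2, 49.4 and 46.8 CPM against 62.4, 74.9 and 71.3 CPM in contralateral knees, a change of −0.42 ± 0.15 with an FDR of 0.0619 (−0.47 and 0.0591 without contralateral replicate 1). These groups did not overlap. Neutrophil markers stood lower in the same comparison, with 4 of 12 called lower and a median of −0.68 (4 and −0.66 without that library), and their part in the level of Cfp was not tested.

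Between day 7 injured and contralateral knees, 2 of 9 members were called higher, C1s1 and Serping1, where 9.33% of all genes were, and 0 lower, where 3.23% were. By CPM the groups stood apart for C1s1, Cfb and Serping1, which were above, and for C3 and Cfp, which were below. In TPM, which is not TMM-scaled, they stood apart for C1s1 but overlapped for Cfb, Serping1, C3 and Cfp. Of all genes, 18.6% stood apart above and 14.3% below. The median log2 fold change of the members was 0.16, against −0.05 over all genes, and it was 0.32 without contralateral replicate 1. Leaving out any single library, the one that stood apart included, left the count of members at 2.

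Injured knees at day 7 were also compared with injured knees at day 1, where both groups had been loaded. The time differed, and by the study's methods so did the mice per pool, 2 at day 1 and 4 at day 7. Time, pool size and loss of cartilage cannot be told apart here. C1qa, C1qb, C1s1, Cfb and Serping1 were higher, 5 of 9 members, where 9.04% of all genes were, and 0 were lower, where 6.38% of all genes were. The largest changes were those of C1s1 at 1.46 ± 0.209 (SE, edgeR FDR 1.64e-04), Cfb at 1.14 ± 0.354 (FDR 0.0290) and Serping1 at 1.00 ± 0.222 (FDR 0.00466). C1qb, at 58.6, 58.2 and 49.4 CPM on day 1, rose by a log2 fold change of 0.95 ± 0.171 (FDR 0.00106), and C1qa, at 54.9, 50.4 and 45.9 CPM, by 0.66 ± 0.196 (FDR 0.0234). C1qc passed the FDR limit at 0.58 ± 0.182 (FDR 0.0313) but not the fold limit. It was called by edgeR with transcript length as an offset (0.61, FDR 0.0340) and without day 7 injured replicate 2 (0.67, FDR 0.0355). Leaving out any single library of these groups ended the call of Cfb, and leaving out day 1 injured replicate 2 or 3 or day 7 injured replicate 1 or 2 ended that of C1qa, as did fitting all 18 libraries (FDR 0.0533). In contrast, without day 1 injured replicate 1, the highest for C4b at 305.9 CPM, C4b was called at 0.69 (FDR 0.0384). C1qb, C1s1 and Serping1 were called in every one of these fits. By CPM the groups stood apart, day 7 above day 1, for 6 of 9 members and for 22.8% of all genes, and for no member the other way, against 17.5% of all genes.

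No member was called at day 1. Between injured and contralateral knees the log2 fold changes ran from −0.25 for C1qb to 0.40 for C1s1, and 0 of 9 members had an unadjusted p under 0.05 in edgeR. Against naïve mice, injured knees at day 1 ran from −0.37 for C1qb, the only member with an unadjusted p under 0.05 (FDR 0.987), to −0.01 for C1s1. In contralateral knees at day 1 against naïve mice the range was −0.41 for C1s1, the only member with an unadjusted p under 0.05 there, to −0.03 for Cfp. Contralateral knees at day 7 ran from −0.27 for Serping1 to 0.47 for C1qb (FDR 0.276), again the only member with an unadjusted p under 0.05, and without replicate 1, the library that stood apart, these were −0.03 and 0.09. In these 4 comparisons edgeR called 0 of all genes tested, 0% in either direction, and DESeq2 and limma-voom called no member either. Over all genes limma-voom called 0 in each of the 4, while DESeq2 called 0 between knees at day 1, 15 (all lower) in day 1 injured and 1 higher and 1 lower in day 1 contralateral against naïve libraries, and 18 higher and 13 lower in day 7 contralateral against naïve libraries. In edgeR, genes with an unadjusted p under 0.05 numbered 1383 (6.55%), 959 (4.54%), 554 (2.62%) and 3220 (15.1%), in that order.

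The question whether the injury effect itself differed between day 7 and day 1 was put as 1 contrast, the injured minus contralateral difference at day 7 less that at day 1. C1s1 was called, at 1.17 ± 0.280 (SE, edgeR FDR 0.0238), 1 of 9 members where 3.53% of all genes were higher. The call was lost without day 1 contralateral replicate 1 or 2, day 7 contralateral replicate 2 or 3, or day 7 injured replicate 3, at FDRs of 0.0514 to 0.0753. It was kept without day 7 contralateral replicate 1 (1.21, FDR 0.0296). Serping1 (0.95, FDR 0.175) and Cfb (1.10, FDR 0.238) were not called, with or without that library (0.73 and 1.16 without it). None of the 9 was lower, where 0.245% of all genes were.

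**Figure D4:**
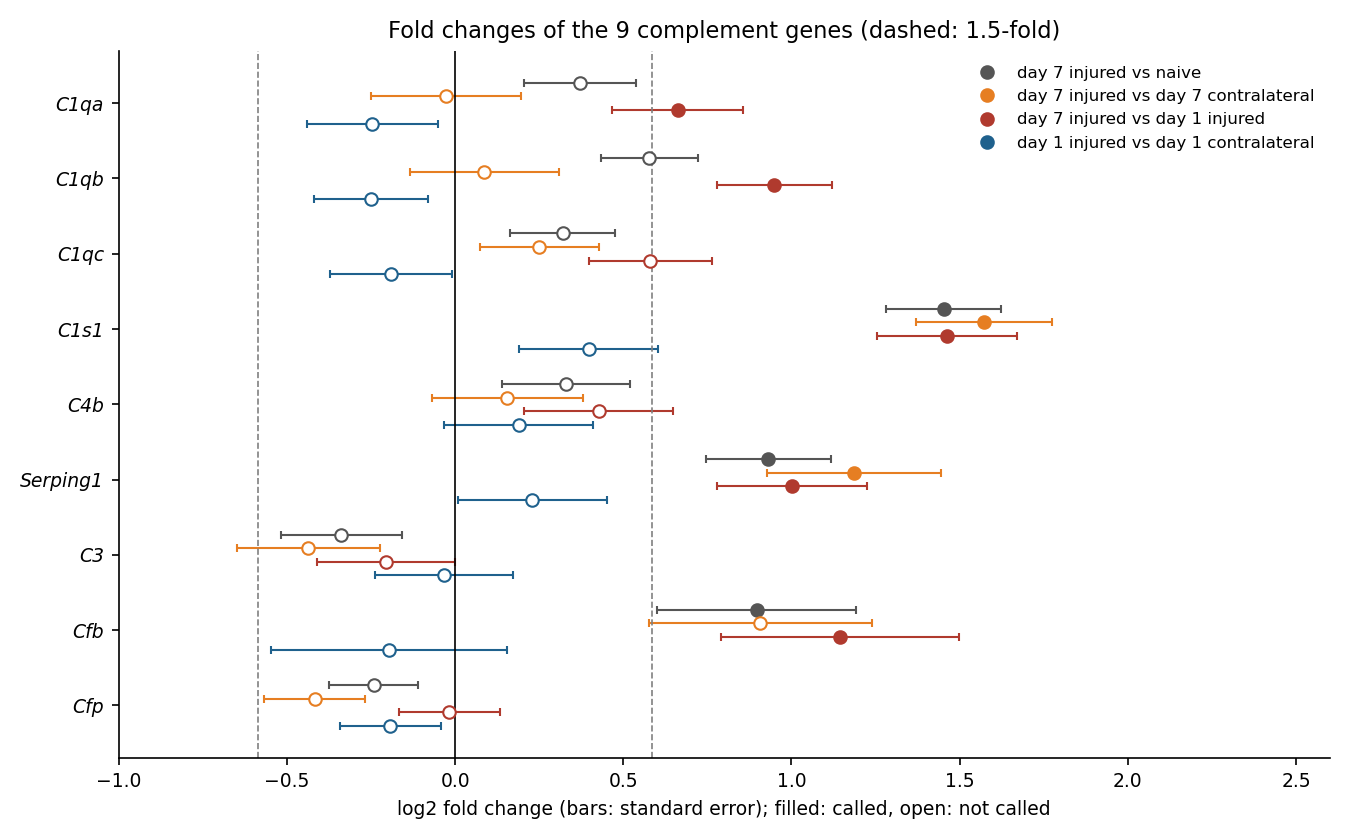
Log2 fold changes of the 9 genes in 4 comparisons, with bars for the standard error, filled circles for calls (FDR of at most 0.05 and at least 1.5-fold) and dashed lines at 1.5-fold. C1s1 and Serping1 are called in all 3 day 7 comparisons, Cfb in 2, and no gene is called between day 1 injured and contralateral knees.

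Of 49 other complement genes listed, 37 passed the filter on low counts. Against naïve mice, 4 of them were higher at day 7 and 5 lower (edgeR, against 10.4% and 6.11% of all genes), and their median log2 fold change was −0.04, as was that of all genes tested. Those that rose were 3 recognition and protease genes and 1 regulator, and those that fell were 2 regulators, 1 receptor, Cfd and C7. These counts rested on single libraries: without naïve replicate 5 there were 7 higher, and without day 7 injured replicates 1 or 3 there were 8 or 2 lower. Against contralateral knees 4 were higher (the same genes) and 4 lower (Cfd, C7, Fcna and Itgb2), where 9.33% and 3.23% of all genes were, and without contralateral replicate 1 there were 3 higher (Susd4 was not called) and 3 lower (Cfd, C7 and Itgam). Without day 7 injured replicates 1, 2 or 3 there were 7, 2 or 0 lower.

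C1ra, Masp1 and Colec12 were the genes of the recognition and protease list that rose. C1ra, the C1r protease that activates C1s, was at 67.3 to 83.9 CPM in day 7 injured libraries against 29.7 to 39.5 CPM in naïve ones, a log2 fold change of 1.09 ± 0.120 (SE, FDR 6.90e-06). Masp1, a protease of the lectin pathway, was at 14.2 to 19.1 CPM against 1.28 to 2.77 CPM, a change of 2.96 ± 0.225 (FDR 1.85e-07). Colec12, a scavenger receptor with a collectin domain, was at 134.8 to 191.9 CPM against 74.7 to 101.1 CPM (0.89, FDR 9.97e-05). None of these 3 overlapped between the groups, and all 3 were also higher than in contralateral knees, at 1.31, 3.84 and 1.02 (1.13, 3.899 and 0.79, still called, without contralateral replicate 1). The other 5 genes of the list that were tested were not called against naïve mice, among them the ficolins Fcnb (−0.34) and Fcna (−0.34), C1rl (−0.02) and Masp2 (−1.44). Fcna was lower than in contralateral knees (−0.76, FDR 0.0137), but not called without contralateral replicate 1 (−0.43, FDR 0.1003). The soluble mannose-binding lectins were nearly absent, with Mbl2 at 0 counts in all 18 libraries.

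Cfd, or adipsin, the protease that cuts factor B, fell. It was at 53.9 to 94.5 CPM in day 7 injured libraries, below the naïve range of 105.7 to 415.1 CPM, at a log2 fold change of −1.58 ± 0.462 (SE, FDR 0.0182), and at −2.03 against contralateral knees (FDR 0.00785), or −1.78 without contralateral replicate 1. Cfd is a product of adipocytes, and adipocyte markers were lower too. Of 8 adipocyte genes, 4 were called lower against naïve mice and 0 higher, with a median of −1.09, and their sum was 166.1 to 213.9 CPM against 220.7 to 527.7 CPM. The part of adipocyte RNA in the level of Cfd was not tested. C2, the partner of C4b in the classical convertase, was at 11.6 to 13.6 CPM against 6.17 to 11.2 CPM, and its change of 0.58 (FDR 0.0343) lay under the fold limit, although against day 1 injured knees it was called (0.73, FDR 0.0306).

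Among the terminal components, C7, part of the membrane pore, fell to 1.62 to 2.997 CPM from 3.94 to 21.8 CPM in naïve libraries, at −2.45 ± 0.661 (FDR 0.0118), and at −2.53 against contralateral knees (FDR 0.0133), or −2.41 without contralateral replicate 1. C6 (0.41) and C8g (0.15) were not called, and C8a, C8b, C9 and C5 (Hc) were too low to be tested. Fluid-phase and membrane regulators went both ways. Susd4 was higher (1.21, FDR 0.00860), from a mean of 10 counts per naïve library, while Cd46 (−0.74, FDR 0.00669) and C4bp (−1.09, FDR 0.0341), the latter from a mean of 20.5 counts, were lower. For Cd46 the naïve group includes replicate 1 at 7.85 CPM, with the next library at 5.08 CPM. The other 12 regulators tested were not called. Clu (−0.34), Cr1l (−0.09) and Cd55 (0.19) were among the most abundant of them.

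Complement receptors gave 1 call of 8 against naïve mice, Cr2, the receptor for C3d on B cells and follicular dendritic cells, which was lower (−1.24, FDR 0.00186). Contralateral libraries at day 7 also lay below every naïve library for Cr2, and they overlapped the injured ones. The subunits of complement receptor 3, Itgam (−0.32, FDR 0.0179) and Itgb2 (−0.27, FDR 0.0354), passed the FDR limit but not the fold limit. Itgb2 was called lower against contralateral knees (−0.60, FDR 6.76e-04), though at −0.57 it lay under the fold limit without contralateral replicate 1, and was at 241.6 to 282.0 CPM against 367.4 to 406.3 CPM. Cd93, once taken for a C1q receptor, was at 219 to 269 CPM against 142.7 to 187.8 CPM (0.58, FDR 0.00106), just under the fold limit. Endothelial cells express Cd93, and 5 of 10 endothelial markers were called higher with a median of 0.58, but their part in its level was not tested. C5ar1 differed by −0.03.

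**Figure D5:**
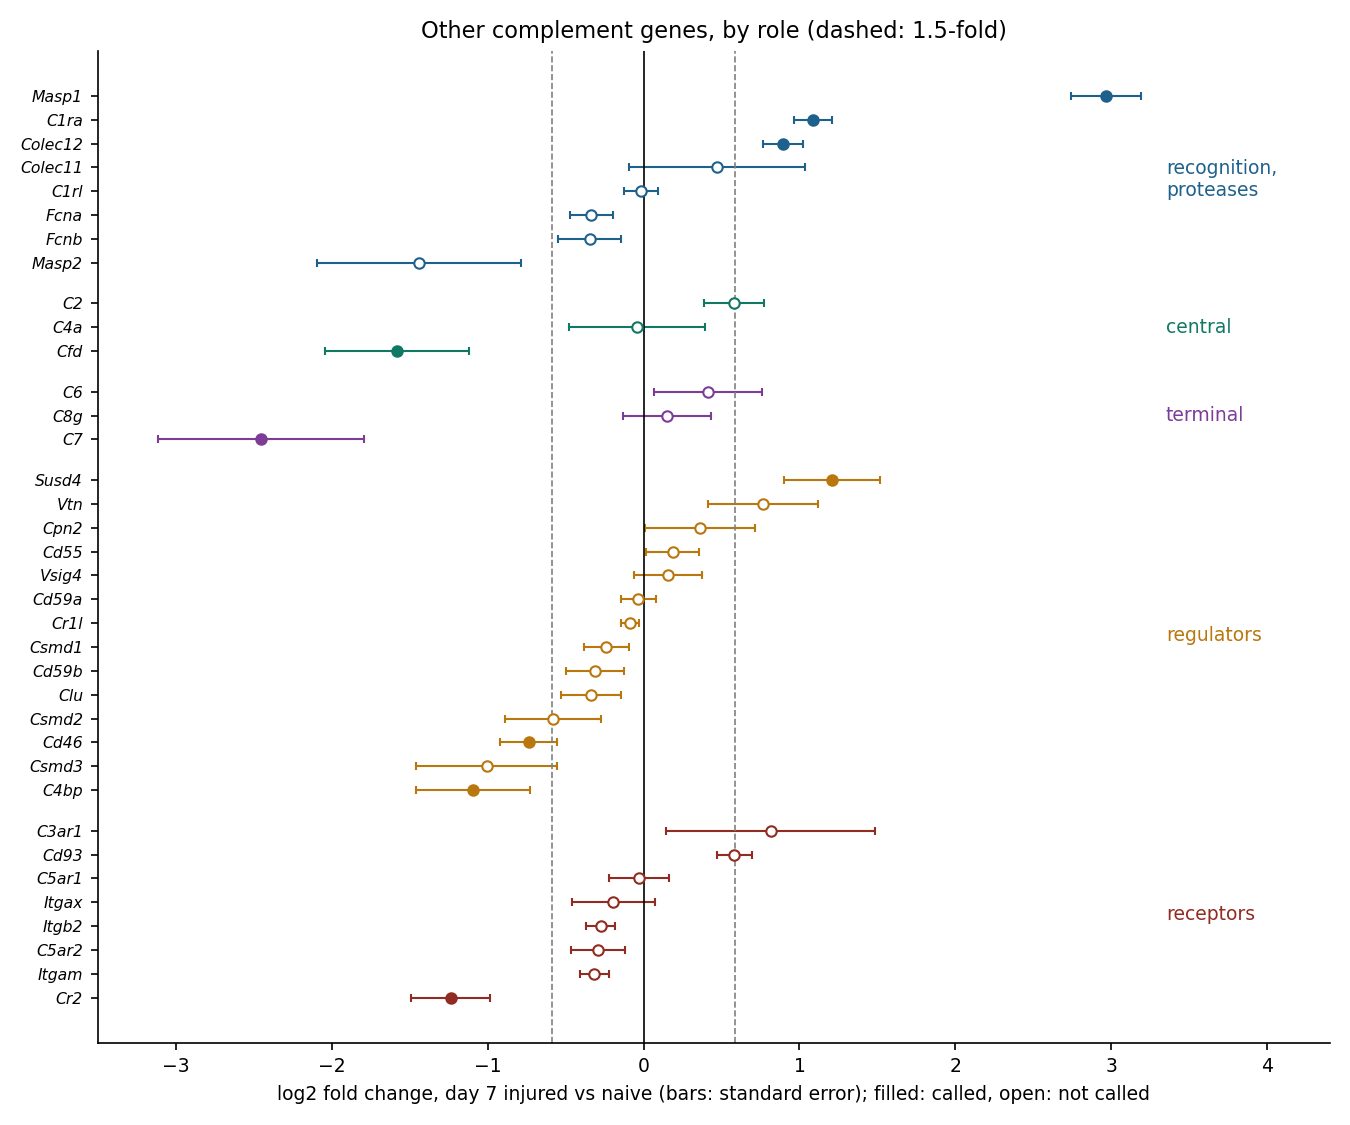
Log2 fold changes between day 7 injured and naïve libraries for 36 of the 37 other complement genes tested, ordered by role, with bars for the standard error, filled circles for calls and dashed lines at 1.5-fold. Masp1 (2.96), C1ra (1.09), Colec12 (0.89) and Susd4 (1.21) were higher, and C7 (−2.45), Cfd (−1.58), Cr2 (−1.24), C4bp (−1.09) and Cd46 (−0.74) were lower.

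Markers of other cell types and programmes are given for the same libraries, as counts beside the 10.4% of all genes called higher and 6.11% called lower, with no list tested as a set. Against naïve mice at day 7, 5 of 12 synovial fibroblast markers were higher (Col14a1 at 2.99, Has1 at 1.92, Thy1 at 1.91, Pdgfra at 1.32 and Cd34 at 0.75) with a median of 0.70, and their sum was 1912 to 3242 CPM against 758 to 1792 CPM. Prg4, the most abundant of them, was not called (0.65, FDR 0.266). Chondrocyte markers had 4 of 14 higher and 1 lower, with a median of 0.27. Erythroid genes had 5 of 10 lower and neutrophil genes 2 of 12 lower. Interferon-stimulated genes gave 0 calls of 16 with a median of −0.10, and 3 of 14 acute inflammation genes were higher, Ptgs2, Tnfaip6 and Socs3. Osteoblast and osteocyte genes had 2 of 10 higher, Col1a1 and Ibsp, and 2 lower, Mepe and Sost. Their sum was 47836 to 55587 CPM against 9146 to 17621 CPM, nearly all from Col1a1, the chain of type I collagen that fibroblasts also make (2.05, FDR 1.72e-05), which reached 52440 CPM in day 7 contralateral replicate 1 too. Skeletal muscle genes had 0 calls of 10 with a median of −0.72. The part of these cells and programmes in the levels of C1s1, Serping1 and Cfb was not tested.

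Genes with the most similar profile were taken by the Pearson correlation of log2 CPM over the 18 libraries among 16124 protein-coding genes, as a description of libraries that share groups and depth. The library that stood apart is included, and no ranking was computed without it. For Serping1 these were Ogn (0.961) and Kera (0.960), small proteoglycans of the matrix, with Itfg1 (0.951), Ace (0.946) and Ankrd29 (0.946). For the mean of the C1q chains they were Asna1 (0.946), Keap1 (0.945), Lgals3bp (0.933), Npc2 (0.923) and Tmsb10 (0.905). C3 was most like Nhsl2 (0.931), Pglyrp1 (0.887), Stxbp5 (0.883), Ngp (0.858) and Gpi1 (0.856). C4b was most like Dio2 (0.908), Fgl2 (0.879), Rbp4 (0.876), Pltp (0.873) and Itpr1 (0.870). Pglyrp1 and Ngp are neutrophil granule genes, and Ngp is on the neutrophil list.

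Libraries of 1 group also differed in a shared way. Naïve replicate 4 was the highest of the 6 for C3 (881.2 CPM), C4b (329.9 CPM), Serping1 (101.3 CPM) and C1s1 (51.9 CPM), and naïve replicate 5 was the lowest for C3 (530.3), Serping1 (55.3) and C1s1 (30.2 CPM). Of the day 1 injured libraries, replicate 1 was the highest and replicate 2 the lowest for these 4 genes, with C3 at 836.2 and 439.9 CPM. The adipocyte markers followed the same order, at 527.7 and 220.7 CPM in naïve replicates 4 and 5, the highest and lowest of that group, and at 535.7 and 176.0 CPM in day 1 injured replicates 1 and 2. C1q did not: its sum was lowest in naïve replicate 1, at 125.3 CPM.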

How the data were processed

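RNA of pooled cartilage caps was sequenced by the authors after depletion of ribosomal RNA with a stranded kit. Per the study's methods, trimmed reads were assigned by Kallisto to transcripts of GRCm38, while the submitters' processing notes list kallisto, DESeq2 and GRCh38. The transcript identifiers are those of mouse. The deposited estimated counts per transcript, made by the authors, were not normalized. The TPM values and effective lengths deposited by the authors come from the same output. TPM was used for levels between genes and, with the effective lengths, for the length offset.

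Of 137436 transcripts, 135107 (98.3%) matched GENCODE genes of GRCm38, and the others, with 0.667% to 3.90% of a library's counts, were left out. Counts were summed per gene and rounded. Totals per library ranged from 16074762 to 41794005, median 25465706, and p-values measure only the spread between these libraries. The test was edgeR 4.0.16 (R 4.3.3), quasi-likelihood, with TMM normalization, its filter on low counts and a mean for each group. Standard errors were taken from the fold change and its F statistic. Comparisons without the day 7 contralateral group used the other 15 libraries (21129 genes), and the rest all 18 (21262). P-values were adjusted by Benjamini-Hochberg over all genes tested, and genes were called at 1.5-fold or more with an FDR no higher than 0.05. The thresholds are those of the study, which used limma-voom with a correlation between knees that the labels do not allow to be estimated. The study removed 1 ACL library for low mapping without naming it.

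The test was checked on simulated counts with known changes. Alternatives were DESeq2 1.42.0 with its Wald test, its size factors in edgeR, limma-voom (limma 3.58.1), no filter on low counts, a length offset, all 18 libraries in every fit, an FDR of at most 0.01, no fold limit and each library left out in turn.

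The members, the lists of other complement genes and of cell type markers, and the motifs were chosen with earlier results of these data known, and no list was tested as a set. All 9 members are named, and of the other complement genes those called in a day 7 injured comparison, with up to 4 others per list by level. One gene of these lists counts in the totals but is not reported here. Genes named as similar are the 5 of highest correlation. Promoters came from RefSeq.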

Additional observations from a re-analysis of the deposited data

Results flagged for a closer look

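The injury effect, injured minus contralateral knees, differed between day 7 and day 1 for 1 of 9 members and 2 of the 37 other complement genes tested, where 3.53% of all genes were called higher. The difference was 1.17 ± 0.280 (SE, log2, edgeR FDR 0.0238) for C1s1, 1.26 ± 0.255 for C1ra (FDR 0.00800) and 3.60 ± 0.401 for Masp1 (FDR 5.51e-05), and without day 7 contralateral replicate 1 these were 1.21, 1.09 and 3.67, still called. The call of C1s1 was lost in 5 of the 12 fits that left out 1 library, at FDRs of 0.0514 to 0.0753. For C1ra and Masp1 only the fit without that library is given. The 3 genes encode proteases that start the classical or lectin pathway.

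The highest naïve library for Cd46, replicate 1, stood at 7.85 CPM, far from the next at 5.08 CPM when set against the range of the 6. It was 1 of 21 genes examined in this way in the naïve group, and chance gives about 1 in 20. All day 7 injured libraries lay below all naïve ones for Cd46, but its fold change without naïve replicate 1 is not given.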

How the results depend on the processing

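Apart from leaving out libraries, 332 values of the 44 fold changes of single members that the text turns on (all 9 members in the 3 day 7 injured comparisons and the difference between injury effects, and the lowest and highest member in the other 4) were set against the main fit. Of these, 317 kept their direction and their side of the threshold, 5 lost a call, 6 gained one and 4 turned. The values include the FDR of at most 0.01 and the lack of a fold limit, which reuse the main fold changes. Under those settings only a call could change, not a direction. Those that turned were close to 0: C1qa against day 7 contralateral knees (0.0302 with limma-voom), C1s1 between day 1 injured and naïve libraries (2.43e-04 with DESeq2 size factors and 2.74e-04 with DESeq2) and C4b for the difference between injury effects (0.0215 with limma-voom). Of 152 counts of calls, 148 stayed within 1.5 times. At an FDR of at most 0.01 the others were 3 members higher between day 7 and day 1 injured knees, 0 for the difference between injury effects, and 2 other complement genes lower against naïve mice and 2 against contralateral knees. These counts come from the main fit at the stricter limit. The edgeR FDRs of C1qa (0.0234) and Cfb (0.0290) against day 1 injured knees lay above it. So did that of C1s1 (0.0238) for the difference between injury effects. Without Lyz2 in the macrophage list, an alternative chosen after seeing the data, the ratio of C1q to the list moved from 1.37 to 1.15 times that of naïve libraries.

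With single libraries left out, members called higher ranged from 2 to 4 against naïve mice, from 3 to 5 against day 1 injured knees and from 0 to 1 for the difference between injury effects. They stayed at 2 against contralateral knees. Other complement genes ranged from 3 to 7 higher and 2 to 8 lower against naïve mice, and from 0 to 7 lower against contralateral knees. The 0 came without day 7 injured replicate 3 and the 7 without replicate 1, and there were 2 without replicate 2. Among the same 44 fold changes, those that turned ranged from −0.20 to 0.29 (C1qa) and −0.10 to 0.49 (C1qb) against contralateral knees, from −0.41 to 0.0670 (C3) and −0.13 to 0.0596 (Cfp) against day 1 injured knees, from −0.18 to 0.23 (C1s1, day 1 injured against naïve), from −0.11 to 0.0745 (Cfp, day 1 contralateral against naïve) and from −0.26 to 0.23 (C4b, difference between injury effects). None of these was called. In the 4 comparisons without an injured day 7 group, other members with small fold changes also crossed 0 under at least 1 alternative, and none was called under any.

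No paired analysis was possible because the labels do not say which libraries share mice. Dependence between pools that share mice was not tested. With 3 libraries a group, the lack of a call does not show that a gene stayed the same. Genes with few counts, such as Susd4, C4bp and C1s2, are least precise.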
